A study of Mus musculus with 8 samples.

Results

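The prostaglandin genes described here are 10 genes of the 22237 on the arrays, taken by Ensembl identifier from a list in a fixed order: the cyclooxygenases Ptgs1 (ENSMUSG00000047250_at) and Ptgs2 (ENSMUSG00000032487_at), the synthases Ptges (ENSMUSG00000050737_at), Ptgis (ENSMUSG00000017969_at) and Ptgds (ENSMUSG00000015090_at), the inactivating enzyme Hpgd (ENSMUSG00000031613_at), and the prostaglandin E2 receptors Ptger1 (ENSMUSG00000019464_at), Ptger2 (ENSMUSG00000037759_at), Ptger3 (ENSMUSG00000040016_at) and Ptger4 (ENSMUSG00000039942_at). All 10 were found in the normalized table. The genes were chosen by their place in the pathway, with log2 differences among these same 8 arrays already known and no threshold or contrast stated, so the values below describe these genes and give no independent support for a pattern in the list. RNA of cultured primary cells from mouse glomeruli was hybridized to 8 Affymetrix Mouse Gene ST arrays, which gave log2 expression in arbitrary intensity units, where a difference of 1 is a 2-fold change.

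The 4 groups, each of 2 arrays, were podocytes in EGM-MV, podocytes in RPMI, parietal epithelial cells (PECs) in EGM-MV and PECs in RPMI. Podocytes cover the glomerular capillaries and came from decapsulated glomeruli of female Pod-rtTA/LC1/R26R mice. PECs line Bowman's capsule and came from capsulated glomeruli of female PEC-rtTA/LC1/R26R mice, in which a fragment of the rabbit podocalyxin promoter drives the transactivator rtTA. In both lines, on a mixed Sv129 background, doxycycline switched on Cre and with it a lasting beta-galactosidase tag, and tagged cells were sorted by fluorescence from the outgrowths and then passaged. The tag reaches most but not all cells of its type. RPMI is a basal medium and EGM-MV is a growth-factor-enriched medium made for microvascular endothelial cells, and EGM-MV was used with a higher share of fetal calf serum. Cell type, mouse line and preparation of the glomeruli changed together and cannot be told apart, and neither can medium and serum share. There were 2 independent cultures per cell type, each kept in both media, and replicate 1 and replicate 2 name the same cultures in either medium. Uncultured cells were not analysed here. The sources used here call the mice adult and give no exact age. The labelled cell types were not checked against their marker genes, because the gene table used here pairs none of the Ensembl identifiers with names.

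Prostaglandins are made from arachidonic acid, which the cyclooxygenases turn into the intermediate prostaglandin H2. Terminal synthases then make the single prostanoids, among them prostaglandin E2 and prostacyclin, which act on G protein-coupled receptors of the same or neighboring cells and are removed by oxidation. In the kidney they regulate glomerular blood flow, renin release and salt excretion, and podocytes are known to respond to prostaglandin E2.

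The medians of the 8 arrays lay between 6.21 and 6.32, and replicates correlated across genes at r = 0.991 to 0.998. The interquartile ranges lay between 2.91 and 3.22, so the arrays did not share 1 distribution. A level of 6 was taken as background, and 13255 genes averaged at least 6 in some group. Of the 10 prostaglandin genes, 9 did so in some group and 6 in all 4 groups. Ptges averaged below 6 in PECs in RPMI. Hpgd and Ptger3 were above 6 in podocytes in EGM-MV and below it in the other 3 groups, and Ptger2 was below it in every group. The spread of the group means was widest for Ptgis (3.07), Ptgs2 (2.91) and Ptgs1 (2.79), and it was below 0.6 for Ptgds (0.47), Ptger1 (0.53), Ptger4 (0.51) and Ptger2 (0.068). Levels are compared within a gene, not between genes, since probe sets differ in brightness. The RNA came from bulk cultures, in which fewer cells expressing a gene and less RNA of it per cell cannot be told apart.

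Ptgs1, the cyclooxygenase that many tissues express at a steady level, was higher in podocytes than in PECs and higher in EGM-MV than in RPMI. Replicates 1 and 2 of podocytes read 12.12 and 12.17 in EGM-MV and 10.48 and 10.45 in RPMI. PECs read 11.07 and 10.95 in EGM-MV and 9.34 and 9.37 in RPMI. No group overlapped another, and the order ran from podocytes in EGM-MV through PECs in EGM-MV and podocytes in RPMI to PECs in RPMI. Group means were 12.14 ± 0.04, 10.47 ± 0.03, 11.01 ± 0.08 and 9.35 ± 0.02 for podocytes in EGM-MV, podocytes in RPMI, PECs in EGM-MV and PECs in RPMI (SD, n = 2 arrays each). The medium moved Ptgs1 by almost the same amount in both cell types. EGM-MV exceeded RPMI by 1.68 ± 0.08 in podocytes (SE, 3.20-fold, adjusted p = 4.42e-05, limma) and by 1.66 ± 0.08 in PECs (3.15-fold, adjusted p = 0.000109, limma). The medium difference in podocytes minus that in PECs was 0.02, with a 95% interval of -0.23 to 0.27 and an adjusted p of 0.954 (limma interaction). Podocytes exceeded PECs by 1.14 ± 0.08 in EGM-MV (2.20-fold) and by 1.11 ± 0.08 in RPMI (2.16-fold), with adjusted p-values of 5.46e-05 and 6.58e-05 (limma). Within single cultures, the EGM-MV array exceeded the RPMI array by 1.64 and 1.72 in the podocyte cultures and by 1.73 and 1.58 in the PEC cultures. These 4 differences of Ptgs1 kept an adjusted p below 0.05 under every alternative setting tried.

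Ptgs2, the cyclooxygenase that growth factors, serum and inflammatory signals induce, behaved differently from Ptgs1. Podocytes read 10.04 and 10.36 in EGM-MV and 12.69 and 12.63 in RPMI. PECs read 10.49 and 10.80 in EGM-MV and 9.03 and 10.49 in RPMI. The podocytes in RPMI stood above all other arrays by at least 1.83, and podocytes in EGM-MV overlapped PECs in RPMI, where replicate 1 was the lowest of the 8 arrays. Group means were 10.20 ± 0.23 in podocytes in EGM-MV, 12.66 ± 0.04 in podocytes in RPMI, 10.65 ± 0.22 in PECs in EGM-MV and 9.76 ± 1.03 in PECs in RPMI (SD, n = 2 arrays each). In podocytes, Ptgs2 was lower in EGM-MV than in RPMI, with a difference of -2.46 ± 0.40 (SE, 5.51-fold, adjusted p = 0.0072, limma). Of the 22237 genes, 16 had a medium difference in podocytes at least as low, Ptgs2 included. Both podocyte cultures showed it, with EGM-MV minus RPMI at -2.65 and -2.27. In PECs the same difference was 1.47 and 0.32 in the 2 cultures and averaged 0.89 ± 0.40, with a 95% interval of -0.041 to 1.83 and an adjusted p of 0.203 (limma). The medium difference in podocytes minus that in PECs was -3.35 ± 0.57 (adjusted p = 0.0264, limma interaction), and 2 genes of the 22237, Ptgs2 included, had a value at least as low.

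Between cell types, Ptgs2 in RPMI was higher in podocytes by 2.91 ± 0.40 (SE, 7.50-fold, adjusted p = 0.00145, limma), a difference that 29 genes reached, Ptgs2 included. In EGM-MV the podocyte minus PEC difference was -0.45 ± 0.40, with a 95% interval of -1.38 to 0.49 and an adjusted p of 0.456 (limma). The PEC arrays in RPMI were far apart for this gene: the podocyte minus PEC difference in RPMI was 2.18 without PEC RPMI replicate 1 and 3.64 without PEC RPMI replicate 2, both with an adjusted p below 0.05. Without PEC RPMI replicate 2 the medium difference in PECs was 1.62 (adjusted p = 0.00385, limma), and without PEC RPMI replicate 1 it was 0.16 (adjusted p = 0.641). In EGM-MV the adjusted p of the podocyte minus PEC difference was 0.0461 when either PEC RPMI array was left out, with the difference itself still at -0.45. With the culture as a fixed block, the medium difference of Ptgs2 in PECs passed the threshold (adjusted p = 0.0389, limma), and with the culture as a random block it did not (adjusted p = 0.119). The podocyte medium difference of Ptgs2 had an adjusted p of 0.0669 without podocyte EGM-MV replicate 1, of 0.0609 without podocyte RPMI replicate 1 and of 0.0603 without podocyte RPMI replicate 2, and its size then lay between -2.49 and -2.30. The interaction of Ptgs2 passed the threshold in 3 of the 8 fits without 1 array, those lacking either PEC array in RPMI or PEC EGM-MV replicate 1, and its adjusted p was 0.0577 to 0.132 in the other 5. Its value was -2.62 without PEC RPMI replicate 1 and -4.08 without PEC RPMI replicate 2.

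**Figure D1:**
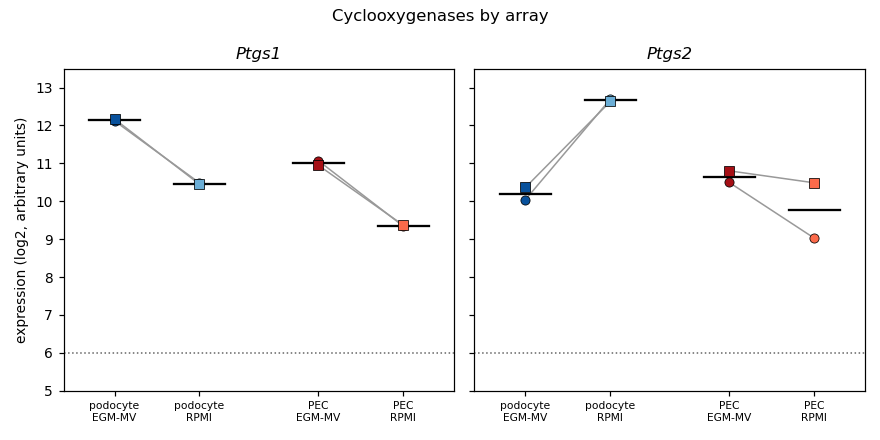
Expression of Ptgs1 and Ptgs2 (log2, arbitrary units) on each of the 8 arrays, with podocytes left of PECs and EGM-MV left of RPMI. Circles are replicate 1 and squares replicate 2, gray lines join the media of 1 culture, bars are group means, and the dotted line is the background level of 6. Both lines of Ptgs1 run downward from EGM-MV to RPMI in either cell type, and for Ptgs2 the podocytes in RPMI (12.69 and 12.63) lie above all other arrays.

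Ptgs1 and Ptgs2 share an enzyme activity and differed in their medium response in podocytes, so the DNA around their annotated starts is shown, each 300 bases long with 250 before and 50 after the start, 5′ to 3′ on the gene's strand, from RefSeq (build GRCm38.p6). Ptgs1 lies at chr2:36230176-36230475 (plus strand) and Ptgs2 at chr1:150099781-150100080 (plus strand). Capitals mark letters of 5 short motifs searched on both strands, namely TATAAA (a core promoter box), TGACG (the core of the cyclic AMP response element), CACGTG (E-box), GGGCGG (GC box) and TGAGTCA (AP-1).
Ptgs1: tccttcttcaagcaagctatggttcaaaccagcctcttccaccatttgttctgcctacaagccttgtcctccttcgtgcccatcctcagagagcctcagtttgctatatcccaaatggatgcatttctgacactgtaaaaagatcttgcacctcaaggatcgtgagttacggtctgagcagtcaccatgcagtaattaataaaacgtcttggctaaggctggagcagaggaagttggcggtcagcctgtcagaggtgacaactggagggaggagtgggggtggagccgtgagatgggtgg
Ptgs2: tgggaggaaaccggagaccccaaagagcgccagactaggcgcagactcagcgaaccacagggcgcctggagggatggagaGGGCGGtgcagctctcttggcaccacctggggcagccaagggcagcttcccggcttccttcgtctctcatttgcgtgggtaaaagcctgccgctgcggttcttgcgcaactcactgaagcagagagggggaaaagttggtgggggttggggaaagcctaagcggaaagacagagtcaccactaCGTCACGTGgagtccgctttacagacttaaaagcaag
The Ptgs1 window held none of the 5 motifs. The Ptgs2 window held GGGCGG at 170 bases before the start, and TGACG on the opposite strand at 14 bases and CACGTG at 17 bases after it, which overlap and make up the longer run of capitals. Among all 32851 promoters of the table, TGACG occurred in 20.8%, CACGTG in 7.15%, GGGCGG in 35.7%, TATAAA in 13.6% and TGAGTCA in 5.2%. A match describes the letters only, and no binding was measured here. Of the 10 genes, 8 had a window in the table, and Ptgis and Ptger1 had none. GGGCGG occurred in the windows of Ptges, Hpgd, Ptger3 and Ptger4 as well, TATAAA in that of Hpgd and TGAGTCA in that of Ptgds, and the Ptger2 window held none.

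Among the terminal synthases, Ptgis, which makes prostacyclin, was the gene that set the cell types furthest apart. Podocytes read 9.37 and 9.08 in EGM-MV and 8.58 and 8.48 in RPMI. PECs read 6.11 and 6.20 in EGM-MV and 6.34 and 6.53 in RPMI. Every podocyte array was above every PEC array, and the lowest podocyte array exceeded the highest PEC array by 1.94, while the PEC arrays lay just above the background level. The podocyte minus PEC difference was 3.07 ± 0.12 in EGM-MV (SE, 8.40-fold, adjusted p = 8.57e-06, limma) and 2.09 ± 0.12 in RPMI (4.26-fold, adjusted p = 3.54e-05). Over both media it was 2.58 ± 0.08 (5.98-fold, adjusted p = 1.55e-06, limma), and 57 of the 22237 genes, Ptgis included, had a difference at least as high. All 3 differences kept an adjusted p below 0.05 under every alternative setting tried. The sign of the medium difference of Ptgis was not the same in both cell types. EGM-MV minus RPMI was 0.79 and 0.60 in the podocyte cultures, with a mean of 0.70 ± 0.12 (1.62-fold, adjusted p = 0.00831, limma). In the PEC cultures it was -0.23 and -0.33, with a mean of -0.28 ± 0.12 that did not pass the test (adjusted p = 0.172, limma). The medium difference in podocytes minus that in PECs was 0.98 ± 0.17 (adjusted p = 0.0266, limma interaction). The podocyte medium difference of Ptgis had an adjusted p of 0.0677 without podocyte EGM-MV replicate 1 and of 0.0669 without podocyte RPMI replicate 2. Its interaction lost the call in 5 of the 8 fits without 1 array, those lacking podocyte EGM-MV replicate 1, either podocyte array in RPMI, PEC EGM-MV replicate 1 or PEC RPMI replicate 2, with adjusted p-values of 0.0519 to 0.11 and values of 0.83 to 1.03.

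Ptges, the microsomal prostaglandin E synthase that is induced together with Ptgs2 in many cells, was higher in podocytes. Podocytes read 7.28 and 7.14 in EGM-MV and 6.31 and 6.48 in RPMI. PECs read 5.86 and 6.56 in EGM-MV and 5.57 and 5.60 in RPMI. Podocytes in EGM-MV were above the rest, the 2 PEC arrays in EGM-MV lay on either side of the background level, and those in RPMI were below it. Podocytes exceeded PECs by 1.00 ± 0.20 in EGM-MV (SE, 2.00-fold, adjusted p = 0.0068, limma). In RPMI the difference was 0.81 ± 0.20 (adjusted p = 0.0198, limma), and with the PEC mean set to 6 the fold was at least 1.32. EGM-MV minus RPMI was 0.81 ± 0.20 in podocytes (1.76-fold, adjusted p = 0.0352, limma) and 0.62 ± 0.20 in PECs (adjusted p = 0.0891, limma). The medium difference in podocytes minus that in PECs was 0.19, with a 95% interval of -0.47 to 0.85 (adjusted p = 0.84, limma interaction). The medium call in podocytes was lost without any 1 of the 4 podocyte arrays (adjusted p = 0.119 to 0.208) and with quantile normalization repeated (adjusted p = 0.0586), the call between cell types in RPMI was lost without podocyte RPMI replicate 1 or 2 or PEC RPMI replicate 1 or 2 (adjusted p = 0.056 to 0.10), and the call in EGM-MV was lost without podocyte EGM-MV replicate 1 (adjusted p = 0.0527). The difference of Ptges in EGM-MV was 0.65 without PEC EGM-MV replicate 1 and 1.35 without PEC EGM-MV replicate 2, past the threshold in both. The PEC medium difference of Ptges was 0.97 (adjusted p = 0.00724) when PEC EGM-MV replicate 1 was left out and 0.28 (adjusted p = 0.207) when PEC EGM-MV replicate 2 was, and its adjusted p was 0.0321 with the culture as a fixed block and 0.0505 with the culture as a random block.

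Ptgds, which makes prostaglandin D2, varied little and ran the other way, with the highest mean in PECs. Podocytes read 6.17 and 6.26 in EGM-MV and 6.22 and 6.49 in RPMI, and PECs read 6.34 and 6.50 in EGM-MV and 6.64 and 6.73 in RPMI. All arrays lay within 1 unit above the background level and the cell types overlapped. Over both media, podocytes were lower by 0.27 on the log2 scale (difference -0.27 ± 0.08, SE, adjusted p = 0.0285, limma). That call was lost without podocyte EGM-MV replicate 1 or 2, podocyte RPMI replicate 1, PEC EGM-MV replicate 2 or PEC RPMI replicate 2 (adjusted p = 0.0594 to 0.103). Within a medium the podocyte minus PEC difference was -0.20 ± 0.11 in EGM-MV (adjusted p = 0.217) and -0.33 ± 0.11 in RPMI (adjusted p = 0.0634, limma). Without podocyte RPMI replicate 1 the Ptgds difference in RPMI was -0.19 (adjusted p = 0.303), and without podocyte RPMI replicate 2 it was -0.47 (adjusted p = 0.0296). The medium differences were -0.14 in podocytes and -0.27 in PECs, with adjusted p-values of 0.549 and 0.175 (limma).

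Hpgd, which starts the breakdown of prostaglandin E2 by oxidation, was near or below background throughout. Podocytes read 6.55 and 6.02 in EGM-MV and 5.36 and 5.58 in RPMI, and PECs read 5.49 and 5.58 in EGM-MV and 5.61 and 5.57 in RPMI. Only the podocytes in EGM-MV lay above 6, and the other 3 groups overlapped. Podocytes in EGM-MV exceeded PECs in EGM-MV by 0.75 ± 0.16 (SE, adjusted p = 0.0106, limma) and podocytes in RPMI by 0.81 ± 0.16 (adjusted p = 0.0173, limma), and with the lower mean set to 6 either fold was at least 1.22. Without podocyte EGM-MV replicate 1 the difference between cell types in EGM-MV was 0.48 (adjusted p = 0.0406). The cultures differed in size, since EGM-MV minus RPMI was 1.19 in podocyte culture 1 and 0.44 in podocyte culture 2. The medium call in podocytes was lost without podocyte EGM-MV replicate 1 (0.55, adjusted p = 0.0712) and when either podocyte RPMI array was left out, with adjusted p-values of 0.112 for replicate 1 and 0.0636 for replicate 2. The medium difference of Hpgd in podocytes minus that in PECs was 0.87 ± 0.23 (adjusted p = 0.108, limma interaction), and 1.14 without podocyte EGM-MV replicate 2 (adjusted p = 0.044). Over both media the podocyte minus PEC difference was 0.31 ± 0.12 (adjusted p = 0.0656, limma), with 0.18 without podocyte EGM-MV replicate 1 (adjusted p = 0.145) and 0.45 without podocyte EGM-MV replicate 2 (adjusted p = 0.0065).

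**Figure D2:**
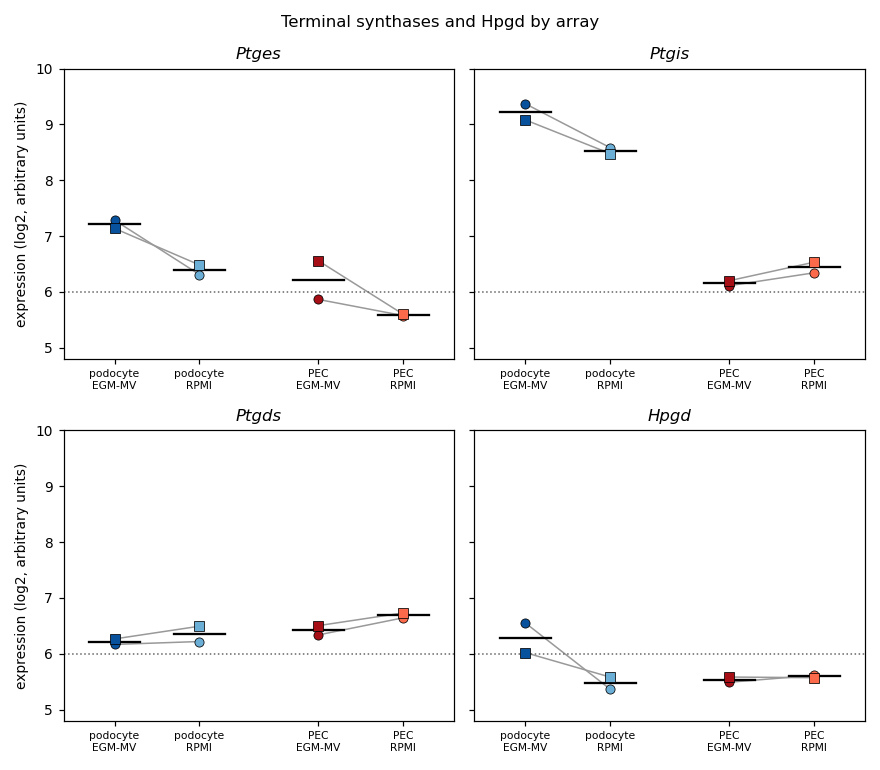
Expression of Ptges, Ptgis, Ptgds and Hpgd (log2, arbitrary units) on each array, with podocytes left of PECs and EGM-MV left of RPMI. Circles are replicate 1, squares replicate 2, gray lines join the media of 1 culture, bars are group means and the dotted line is the background level of 6. Ptgis separates all podocyte arrays from all PEC arrays, and Hpgd lies above 6 on the podocyte arrays in EGM-MV alone.

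Of the 4 receptors for prostaglandin E2, Ptger3, whose product EP3 couples to inhibitory G proteins, differed most among the groups. Podocytes read 7.10 and 6.93 in EGM-MV and 5.81 and 5.67 in RPMI. PECs read 5.62 and 5.56 in EGM-MV and 5.67 and 5.57 in RPMI. The gene was above background in podocytes in EGM-MV, below it in the other 3 groups, and 1.12 separated the lower of those 2 arrays from the next array. Podocytes in RPMI stood above PECs in RPMI by 0.0051 at the closest pair, and both are below 6. EGM-MV exceeded RPMI by 1.27 ± 0.09 in podocytes (SE, adjusted p = 0.000299, limma), and 1.29 and 1.26 were the values of the 2 cultures. The PEC cultures gave -0.05 and -0.01, and the 95% interval of the PEC difference was -0.24 to 0.19 (adjusted p = 0.881, limma). The medium difference in podocytes minus that in PECs was 1.30 ± 0.13 (adjusted p = 0.00434, limma interaction), and 153 of the 22237 genes, Ptger3 included, had a value at least as high. Podocytes exceeded PECs by 1.42 ± 0.09 in EGM-MV (adjusted p = 5.04e-05, limma), and in RPMI the difference was 0.12 ± 0.09 (adjusted p = 0.38, limma). With the lower mean set to 6, the fold was at least 2.02 between the media in podocytes and at least 2.02 between the cell types in EGM-MV. The interaction of Ptger3 passed the threshold in all 8 fits without 1 array.

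The window around the Ptger3 start is shown because the gene changed with the medium in podocytes and stayed below background in PECs. It lies at chr3:157566626-157566925 (plus strand, RefSeq, build GRCm38.p6), and capitals mark GGGCGG or its reverse complement.
Ptger3: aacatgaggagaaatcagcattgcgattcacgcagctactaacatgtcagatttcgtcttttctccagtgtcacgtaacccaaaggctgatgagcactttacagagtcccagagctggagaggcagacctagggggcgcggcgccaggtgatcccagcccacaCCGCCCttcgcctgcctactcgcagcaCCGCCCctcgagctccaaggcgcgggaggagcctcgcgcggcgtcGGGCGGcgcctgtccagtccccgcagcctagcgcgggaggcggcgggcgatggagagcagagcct
GGGCGG occurred 3 times, on the opposite strand at 87 and 60 bases before the start and on the gene's strand at 15 bases before it. The other 4 motifs were not in this window.

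Ptger4, whose product EP4 raises cyclic AMP, was well above background in every group and changed little. Podocytes read 9.02 and 9.12 in EGM-MV and 9.32 and 9.15 in RPMI, and PECs read 9.01 and 9.25 in EGM-MV and 9.64 and 9.52 in RPMI. PECs in RPMI were above all other arrays, and PECs in EGM-MV overlapped both podocyte groups. In PECs, Ptger4 was lower in EGM-MV than in RPMI, with a difference of -0.45 ± 0.11 (SE, 1.37-fold, adjusted p = 0.0368, limma), and the 2 cultures gave -0.63 and -0.27. This call was lost in 7 of the 8 fits without 1 array, the exception being that without PEC EGM-MV replicate 2 (adjusted p = 0.0507 to 0.137 in the 7), and also with each array centered on its median (adjusted p = 0.065). In podocytes the difference was -0.17 ± 0.11 (adjusted p = 0.427, limma). The podocyte minus PEC difference had a 95% interval of -0.31 to 0.19 in EGM-MV (adjusted p = 0.725, limma). In RPMI it was -0.34 ± 0.11 (adjusted p = 0.0511, limma), and its adjusted p was 0.0329 without either PEC EGM-MV array.

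Ptger1, whose product EP1 raises intracellular calcium, lay little above the background level and was nearly even across groups. Podocytes read 6.96 and 6.82 in EGM-MV and 6.69 and 6.73 in RPMI, and PECs read 6.74 and 6.67 in EGM-MV and 6.35 and 6.36 in RPMI. PECs in RPMI were lowest, and podocytes in RPMI overlapped PECs in EGM-MV. In PECs, EGM-MV exceeded RPMI by 0.35 ± 0.08 (SE, 1.27-fold, adjusted p = 0.0293, limma), a call lost without podocyte EGM-MV replicate 1 or 2, PEC EGM-MV replicate 1 or 2 or PEC RPMI replicate 1 or 2 (adjusted p = 0.0555 to 0.109). In RPMI, podocytes exceeded PECs by 0.35 ± 0.08 (1.28-fold, adjusted p = 0.0129, limma), a call lost without podocyte RPMI replicate 2 (adjusted p = 0.0538) or PEC RPMI replicate 1 (adjusted p = 0.0549). Ptger2, whose product EP2 also raises cyclic AMP, read between 5.08 and 5.33 on the 8 arrays, and its groups overlapped. The 95% interval of its podocyte minus PEC difference over both media was -0.23 to 0.12 (adjusted p = 0.611, limma), on a signal below background in every group.

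**Figure D3:**
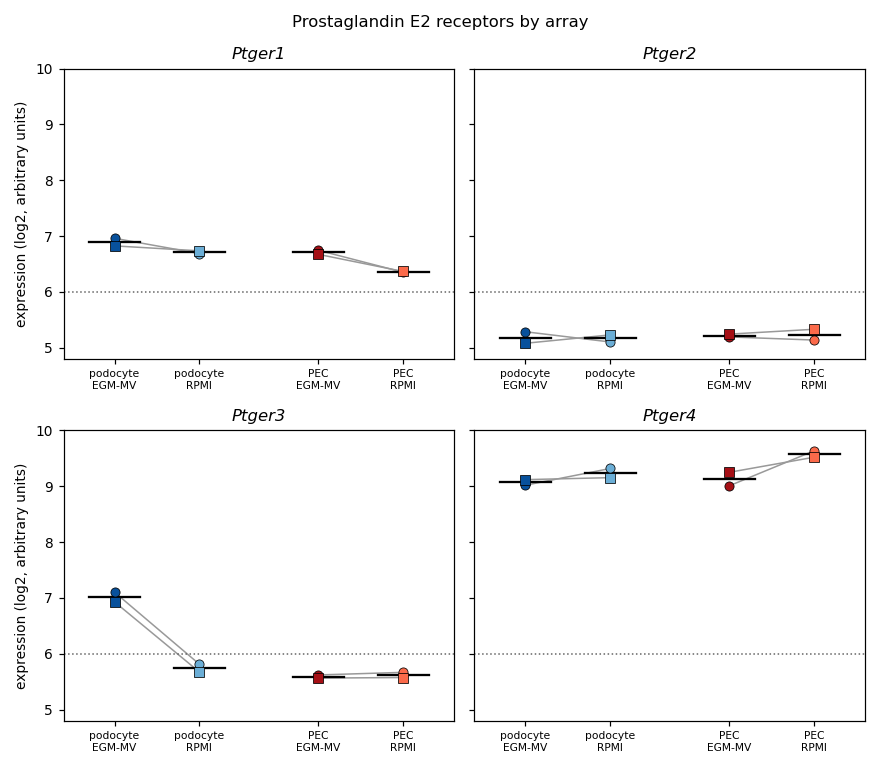
Expression of Ptger1, Ptger2, Ptger3 and Ptger4 (log2, arbitrary units) on each array, with podocytes left of PECs and EGM-MV left of RPMI. Circles are replicate 1, squares replicate 2, gray lines join the media of 1 culture, bars are group means and the dotted line is the background level of 6. Ptger3 lies above 6 on the podocyte arrays in EGM-MV (7.10 and 6.93) and below it elsewhere, Ptger2 lies below 6 on every array, and Ptger4 lies between 9.01 and 9.64.

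Set beside all genes, the counts of prostaglandin genes past the threshold were as follows, with an adjusted p below 0.05 by limma in each case and no test of the list. Over both media, 6 of the 10 were higher in podocytes than in PECs (Ptgs1, Ptgs2, Ptges, Ptgis, Ptger1 and Ptger3) and 1 was lower (Ptgds), where 20.2% of all genes were higher and 21.2% lower, 41.4% together. The median difference of the 10 was 0.54, against -0.05 for all genes. A difference over both media is a mean and need not hold in each medium. For Ptgs2, 1.23 over both media joined -0.45 in EGM-MV, which did not pass, with 2.91 in RPMI. Its call over both media was lost with no moderation of the variances and without both arrays of either podocyte replicate. The difference was 1.30 without those of podocyte replicate 1 and 1.17 without those of podocyte replicate 2. For Ptger3, 0.77 joined 1.42 in EGM-MV with 0.12 in RPMI, where the means of both cell types were below 6. In EGM-MV, 5 were higher in podocytes (Ptgs1, Ptges, Ptgis, Hpgd and Ptger3) and the other 5 did not pass, where 16.6% of all genes were higher and 15.5% lower, 32.2% together, and the medians were 0.47 and -0.05. In RPMI, 5 were higher (Ptgs1, Ptgs2, Ptges, Ptgis and Ptger1) and the other 5 did not pass, where 15.5% of all genes were higher and 12.8% lower, 28.4% together, and the medians were 0.24 and -0.05. The comparison over both media takes the 4 arrays of a cell type together, which come from 2 cultures. With 1 mean per culture it gave 7 of the 10 past the threshold as well, with Hpgd in place of Ptgds. Of all genes, 7404 passed under that setting, in place of 9198.

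Between media, 5 of the 10 were higher in EGM-MV than in RPMI in podocytes (Ptgs1, Ptges, Ptgis, Hpgd and Ptger3) and 1 was lower (Ptgs2), where 7.7% of all genes were higher and 5.99% lower, 13.7% together. The median difference was 0.44 for the 10 and -0.01 for all genes. In PECs, 2 were higher in EGM-MV (Ptgs1 and Ptger1) and 1 was lower (Ptger4), where 7.64% of all genes were higher and 4.62% lower, 12.3% together, and the medians were -0.02 and -0.01. The medium difference itself differed between the cell types for 3 of the 10, more positive in podocytes for Ptgis and Ptger3 and more negative for Ptgs2, where 1.48% of all genes were more positive and 1.51% more negative, 2.99% together. Without both arrays of either podocyte culture, 0 of the 10 passed the interaction by limma (4 at an unadjusted p below 0.05), and 1 of all genes did. The comparisons between cell types and between media share arrays with each other and with this interaction, so the 3 kinds of count are not separate lines of evidence.

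**Figure D4:**
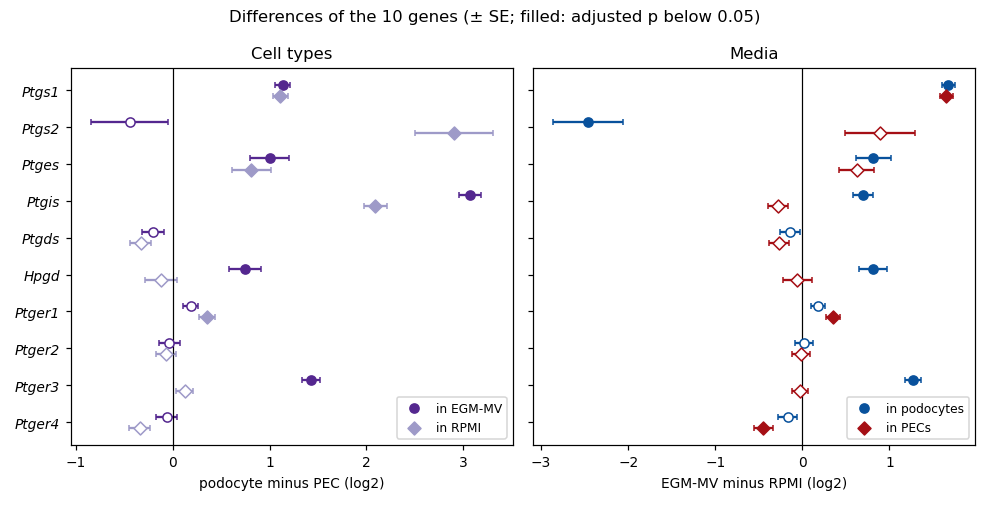
Differences of the 10 genes (log2 ± SE) between podocytes and PECs in each medium (left) and between EGM-MV and RPMI in each cell type (right), with filled points where the adjusted p was below 0.05. The medium points of Ptgs1 nearly coincide (1.68 in podocytes and 1.66 in PECs), and those of Ptgs2 lie on either side of 0 (-2.46 in podocytes and 0.89 in PECs).

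**Figure D5:**
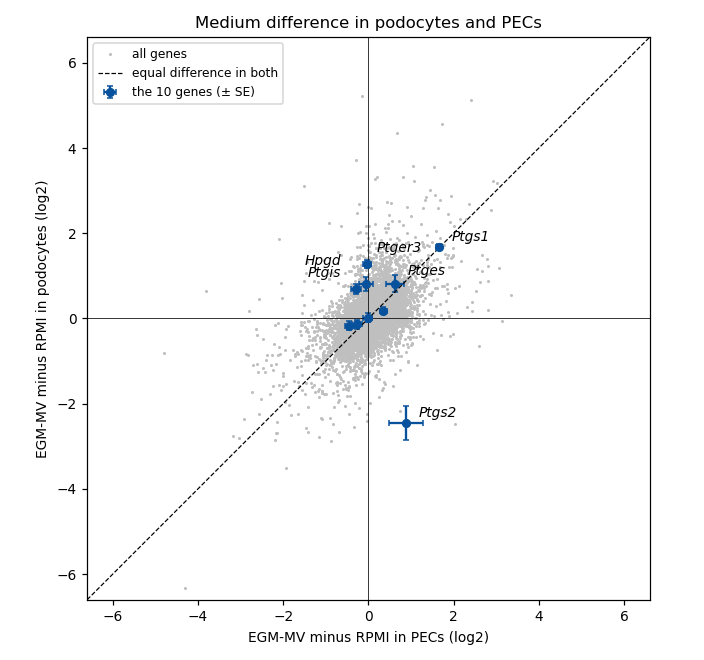
EGM-MV minus RPMI (log2) in podocytes against the same difference in PECs, for all 22237 genes (gray) and the 10 prostaglandin genes (blue, ± SE), with a dashed line where both are equal. Ptgs1 lies on the line, Ptgs2 far below it, and Ptger3, Hpgd and Ptgis lie above it with values near 0 or slightly negative in PECs.

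Across the 8 arrays the levels of the members were compared as a description, with no test, since arrays share cultures and media. Ptgs1 followed Ptges (Pearson r = 0.90) and Ptger1 (r = 0.93) and ran against Ptger4 (r = -0.87). Ptgs1 and Ptgs2 had r = 0.01. Ptger3 followed Hpgd (r = 0.91), the other gene that was above 6 in podocytes in EGM-MV alone. Both lay below 6 in every other group, so this r rests mainly on that group, as does the count for Ptger3 below. Ptger1 ran against Ptger4 (r = -0.94). Among 3155 genes that averaged at least 6 in some group and whose group means spanned at least 1, the number with r of at least 0.95 was 364 for Ptgis, 54 for Ptger3, 50 for Ptgs1, 39 for Ptges and 2 for Ptgs2. The 2 for Ptgs2 were ENSMUSG00000007888 and ENSMUSG00000026131, both with r = 0.96, and neither is a prostaglandin gene of the list.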

How the data were processed

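Total RNA of podocytes and PECs, each in EGM-MV or RPMI, was measured on 8 arrays in 4 groups of 2. The authors processed the scans in JMP Genomics with a custom definition of 1 probe set per Ensembl gene, by RMA background correction, quantile normalization, log2 transformation and a filter on outlying data points. The sources used here give no version of RMA. The deposited log2 values, in arbitrary units, were used as they stand, so changes are relative to the other genes and total RNA per cell was not measured. The normalized table held 22237 genes. The series matrix table held 22215 of them with values that differed by 0 at most, and 0 value columns were left unmapped.

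A model of 4 group means was fitted to each gene over all 8 arrays by lmFit and eBayes (limma 3.58.1, R 4.3.3), with 4 residual degrees of freedom. P-values were two-sided and adjusted over all genes by the Benjamini-Hochberg method within each of 6 contrasts, with a threshold of 0.05. The code was tested on simulated data. The number of arrays limits the precision. Log2 differences, standard errors and p-values use the values as they stand, also where a group mean was under 6. Only for a fold within a medium or within a cell type was such a mean set to 6, and that fold is a lower bound. No such bound was computed over both media or for the interaction, so those values can rest on signal under 6.

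By the culture numbers in the column names, replicate 1 was 1 culture in either medium and replicate 2 another, as the study's methods also describe. Replicates were thus paired between media within a cell type, and were not paired between cell types. As a check, the difference between replicates correlated between media at r = 0.53 in PECs and r = 0.07 in podocytes across genes, which are not independent replicates. A fit with culture as a block was an alternative.

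All 10 genes were named, and the genes most like a member were taken by Pearson r over the 8 arrays among genes averaging at least 6 in some group with group means spanning at least 1. The members and lists were chosen with earlier results of these data known. Other lists, of further pathway genes and cell type markers, were fixed by symbol and were not used, because the gene table paired 0 Ensembl identifiers with symbols. Protein sequences were not used here.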

Additional observations from a re-analysis of the deposited data

Results flagged for a closer look

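For 3 of the 10 genes, the medium difference (EGM-MV minus RPMI) itself differed between podocytes and PECs, by the limma interaction, where 2.99% of all 22237 genes passed. Ptgs2 had a value of -3.35 (adjusted p = 0.0264), from -2.46 in podocytes and 0.89 in PECs. Ptgis had a value of 0.98 (adjusted p = 0.0266), from 0.70 in podocytes and -0.28 in PECs. Ptger3 had a value of 1.30 (adjusted p = 0.00434), with both podocyte cultures between 1.26 and 1.29 and both PEC cultures between -0.05 and -0.01. The PEC arrays in RPMI read 9.03 and 10.49 for Ptgs2. Without PEC RPMI replicate 1 the Ptgs2 value was -2.62, and without PEC RPMI replicate 2 it was -4.08. The Ptgs2 and Ptgis calls were each lost in 5 of the 8 fits without 1 array. With no moderation of the variances, 0 of the 10 genes passed the interaction, Ptger3 included among those lost. Groups of 2 arrays are too small for a search for outlying arrays.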

How the results depend on the processing

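Of the 60 differences (10 genes in 6 contrasts), 29 passed the threshold. Of all genes, 2.99% to 41.4% passed, depending on the contrast. None of the 29 reversed, and 12 stayed past the threshold under every setting in which they were computed. The share of all genes that stayed so was not computed. These 12 were all 5 differences of Ptgs1 other than its interaction, all 3 cell type differences of Ptgis, the cell type difference of Ptges over both media, and Ptger3 between cell types over both media, between cell types in EGM-MV and between media in podocytes. Of the 31 others, 8 passed under some setting. The interaction of Ptgs1 was -0.012 with quantile normalization repeated, -0.052 with arrays centered on their medians, and between -0.049 and 0.095 without 1 array or both arrays of a culture. The interaction of Ptges was -0.16 to 0.54 without 1 array and -0.15 without both arrays of PEC replicate 1, and that of Ptgds was -0.0096 to 0.26 without 1 array.

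The number of the 10 genes past the threshold, without 1 array at a time, was 6 to 8 between cell types over both media, 4 to 6 in EGM-MV, 3 to 6 in RPMI, 2 to 6 between media in podocytes, 1 to 2 in PECs and 1 to 3 for the interaction, beside 7154 to 9085, 4432 to 7429, 4187 to 6502, 923 to 3365, 1601 to 2353 and 149 to 651 of all genes in that order of comparisons. The lone array of a group is there assumed to vary like the others. With quantile normalization repeated, the number was 9 over both media, 5 in EGM-MV and 6 in RPMI. Of all genes, 8726, 7068 and 6241 passed. Hpgd (adjusted p = 0.0217, limma) and Ptger4 (adjusted p = 0.0206, limma) were added over both media, and Ptger4 in RPMI (adjusted p = 0.0167, limma). The study's analysis of variance with post-hoc t-tests and its filter on outlying data points were not repeated. With no moderation of the variances, the number was 5 over both media, 3 in EGM-MV and 4 in RPMI. It was 2 between media in podocytes, 1 in PECs and 0 for the interaction (4 at an unadjusted p below 0.05). Over all genes 7333, 5033, 4070, 1084, 358 and 1 passed in place of 9198, 7151, 6312, 3045, 2726 and 664. With the culture as a fixed block, pairing the media, it was 6 between media in podocytes, 5 in PECs and 3 for the interaction. Of all genes, 4389, 4266 and 1604 passed. A random block (correlation 0.22) gave 6, 3 and 3, with 4111, 3883 and 1234 of all genes. The fixed block adds Ptgs2 and Ptges in PECs, which the random block does not. The fixed block could not be fitted between cell types, whose cultures are separate. There the random block gave 7, 5 and 5 over both media, in EGM-MV and in RPMI, with 8339, 7188 and 6354 of all genes. With the 4 arrays of PECs alone the number was 1 between media in PECs, with 374 of all genes. The 4 podocyte arrays alone gave 6 between media in podocytes, with 4632 of all genes. Leaving out both arrays of a culture was chosen after seeing the data. Counts without a PEC culture stayed the same, rose or fell less, and are not listed. Only the larger drops in the number of the 10 genes past the threshold are given. Without both arrays of podocyte replicate 1 it was 4 over both media, 2 in RPMI, 2 between media in podocytes, 1 in PECs and 0 for the interaction, beside 5427, 2613, 143, 374 and 1 of all genes. Without those of podocyte replicate 2 it was 3 in RPMI, 3 between media in podocytes, 1 in PECs and 0 for the interaction, beside 2880, 107, 374 and 1 of all genes (interaction: 4 of the 10 at an unadjusted p below 0.05 in either case). The cause of these shifts was not tested. Groups of 2 cultures and probe sets near a level of 6 limit what can be told for Hpgd, Ptger2, Ptger3 and Ptges.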
